A study of Mus musculus with 4 samples.

Results

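RNA sequencing compared 2 libraries of primary cultured mouse astrocytes out of the 4 in the series: the library labelled OASIS deficient without treatment and the library labelled OASIS wild type without treatment. These 2 were taken by their genotype and treatment labels, and each group holds 1 library. Both cultures were grown in DMEM with fetal bovine serum and left untreated. The other 2 libraries carry the same genotype labels and come from cultures exposed for 1 h to 1 µg/ml doxorubicin, which traps topoisomerase II on DNA and leaves breaks, and then kept for 24 h. The labels do not give the OASIS allele, the strain, the age of the animals or how many animals a culture came from, nor whether both cultures came from littermates.

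OASIS is the protein of Creb3l1, a membrane-bound transcription factor of the endoplasmic reticulum that is cut within the membrane by the site-1 and site-2 proteases, which frees its N-terminal part for the nucleus. In astrocytes it is known for its activation by endoplasmic reticulum stress, and it has been reported to switch on the gene of the cell cycle inhibitor p21. p21 (Cdkn1a), a classical target of p53, blocks cyclin-dependent kinases, which keeps pocket proteins bound to E2F factors and so holds S phase and mitosis genes silent. Cultured astrocytes can leave the cell cycle for good, a state called senescence, in which p53 targets and p21 are high.

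Read counts of each gene were scaled to library size (CPM) and compared as the log2 ratio of CPM + 1, deficient over wild type, so that a negative value means lower in the deficient library. A gene was called higher or lower when that ratio was at least 1 or at most -1, a 2-fold difference, with a mean of at least 1 CPM across the 4 libraries. With 1 library a side there is no replicate check, no test was possible, and each statement below is about the size of a difference between these libraries. Intervals are 95% exact binomial intervals of a ratio of 2 counts and cover counting error only. Of 55487 genes in the tables, 15596 reached the minimum level. Among them 1527 were higher (9.79%) and 1588 lower (10.2%) in the deficient library, and the median log2 ratio was -0.03 with 48.1% of the genes above 0. On the deposited TPM scale, which divides by length, 1221 genes were higher and 2095 lower, and the median shifted to -0.20. Values near 0 therefore have no settled direction. Some genes farther from 0 turned sign on TPM as well, such as Aldh1l2, from 0.61 to -0.28.

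Total counts were 19518653 in wild type and 17481188 in deficient, and a count of 0 allowed up to 0.151 and 0.174 CPM (3 counts). Over the 4 libraries, 6.76 to 7.21% of all counts fell on the 10 most abundant genes and 1.49 to 1.67% on mitochondrial genes. Y-linked genes were present and Xist was at 0 or 1 count in both untreated libraries, so both carry the sex pattern of male cells, and the doxorubicin libraries carry the opposite one. The doxorubicin pair, deficient over wild type, shares no library with the untreated pair. Its values are set beside the untreated ones, but it differs in treatment and in the sex pattern and is no replicate.

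Creb3l1 (ENSMUSG00000027230.9) held 966 counts in the wild-type and 260 in the deficient library without treatment, and 636 and 235 with doxorubicin. Below, counts are given in the same order, wild type before deficient. Both deficient libraries lay below both wild-type libraries, and neither was at 0. The untreated deficient level was 3.21-fold lower (2.80 to 3.70). A count over the whole gene does not tell which exons gave the remaining reads. The other measured members of the family and its proteases were not called. Creb3l2, the closest relative named BBF2H7, stood at 0.58, Atf6 at 0.47 and Creb3 at 0.41. Mbtps1 and Mbtps2, the site-1 and site-2 proteases, stood at -0.35 and -0.92. Mbtps2, with 296 and 127 counts, was 2.01-fold lower (1.63 to 2.50) before the added 1 CPM. Creb3l3 was at 0 in both untreated libraries and below the minimum level.

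Genes reported as OASIS targets differed little apart from Cdkn1a. Of 7 such genes 6 reached the minimum level, and 1, Cdkn1a, was lower. Hspa5, the chaperone BiP, had 12406 and 9894 counts (-0.12). The collagen genes Col1a1 and Col1a2, which OASIS is known to activate in bone, stood at -0.49 and 0.11, and Vegfa, an angiogenic factor, at -0.78. Chst3, a chondroitin sulfotransferase, stood at 0.70, and the placental factor Gcm1 was at 0 in both untreated libraries. The wider list of 26 endoplasmic reticulum chaperones and stress genes had a median of 0.01 (-0.35 on the deposited TPM scale), with 2 lower and 1 higher. The lower ones were Ern1, the sensor IRE1, at -1.27 and Dnajb9, a co-chaperone, at -1.06. Manf, a secreted stress protein, was higher at 1.06. None of the 3 reached 2-fold in the doxorubicin pair, with -0.82, -0.59 and 0.75. The 19 genes of COPII and COPI vesicle coats, which carry cargo between endoplasmic reticulum and Golgi, held 0 calls and a median of -0.22.

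**Figure D1:**
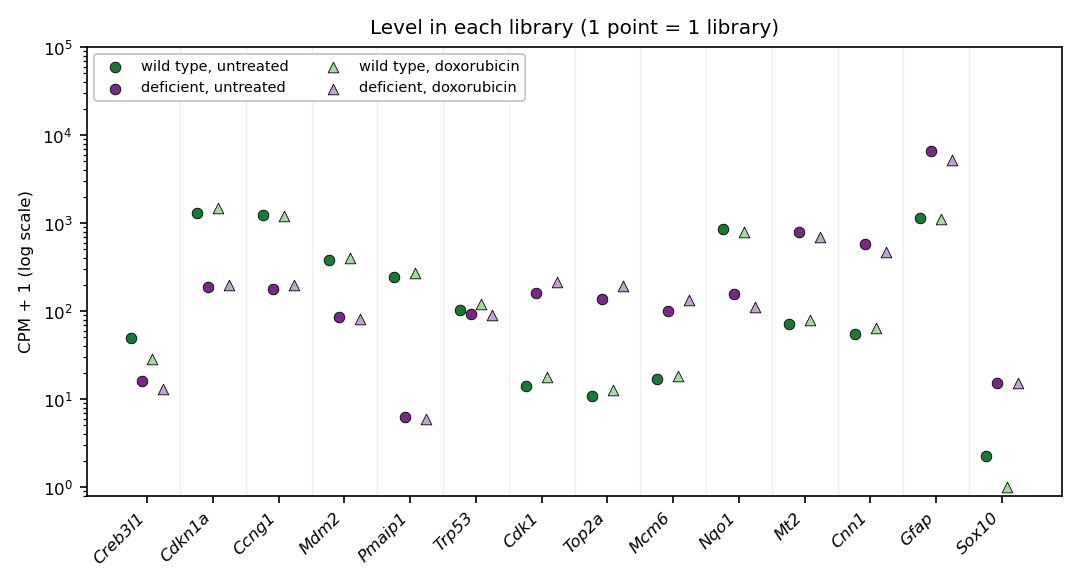
Level of 14 genes in each of the 4 libraries, as CPM + 1 on a log axis, with circles for untreated and triangles for doxorubicin libraries, green shades for wild type and purple shades for deficient. The libraries of one genotype lie close together for most genes, with Cdkn1a at 3204 and 3926 counts in deficient and 25804 and 34221 in wild type, while Trp53 differs little.

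Promoters of genes at both ends of this comparison are shown first, with the short motif that was searched in each group. The motif was not used to choose the groups. The genes printed are picked examples, and for each a promoter that holds the motif was taken, so they do not show how common it is. Sequences are from RefSeq promoter models on GRCm38.p6, which span 250 bases before to 50 after a transcription start, and capitals mark the motif. The first set holds the cell cycle homology region, TTTGAA or TTCGAA on either strand, the element through which the DREAM complex is known to hold late cell cycle genes silent in resting cells. These 4 genes are a mitotic kinase, a spindle motor, an activator of the anaphase-promoting complex and its ubiquitin-conjugating enzyme.
Cdk1 (chr10:69352913-69353002, minus strand): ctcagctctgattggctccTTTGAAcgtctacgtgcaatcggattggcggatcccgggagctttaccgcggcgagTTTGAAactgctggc
Kif11 (chr19:37376292-37376381, plus strand): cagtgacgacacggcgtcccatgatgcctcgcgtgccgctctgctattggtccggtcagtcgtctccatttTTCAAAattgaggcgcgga
Cdc20 (chr4:118437344-118437433, minus strand): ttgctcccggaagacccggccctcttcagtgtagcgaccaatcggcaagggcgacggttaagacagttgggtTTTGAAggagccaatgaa
Ube2c (chr2:164769839-164769928, plus strand): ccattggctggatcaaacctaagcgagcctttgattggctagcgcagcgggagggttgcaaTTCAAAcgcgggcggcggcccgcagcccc

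The second set holds the decamer of the p53 consensus, searched by its name alone on both strands. p53 binds pairs of such decamers. The Cdkn1a window lies at an upstream start of the gene, Ei24 encodes a p53-induced membrane protein of the endoplasmic reticulum, and Rchy1 encodes the ubiquitin ligase PIRH2 that acts on p53.
Cdkn1a (chr17:29090889-29090978, plus strand): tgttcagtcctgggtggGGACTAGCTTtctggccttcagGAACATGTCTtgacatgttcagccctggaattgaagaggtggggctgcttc
Ei24 (chr9:36797335-36797424, minus strand): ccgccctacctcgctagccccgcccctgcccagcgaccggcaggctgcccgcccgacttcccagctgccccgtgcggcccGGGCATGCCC
Rchy1 (chr5:91962557-91962676, minus strand): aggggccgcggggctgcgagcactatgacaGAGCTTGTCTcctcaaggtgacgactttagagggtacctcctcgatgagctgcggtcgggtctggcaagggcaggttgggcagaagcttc

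Promoters were matched for 11128 of 15584 tested symbols (71.4%). The windows were searched list by list. Of 72 genes in the lists of kinetochore, spindle and condensin genes, 61 had a promoter, and 44 of their 69 promoters (63.8%) held the cell cycle homology region, against 19.2% of all 32851 promoters in the table. Among members called higher it was 38 of 54 promoters (70.4%), and among the other members 6 of 15 (40%). The matches of the higher members lay near the start: 38 of 51 matches (74.5%) were within 50 bases of it, against 1826 of 7260 (25.2%) over all promoters. The CCAAT box, the letters CCAAT on either strand, was in 65.2% of the promoters of these lists and in 37.4% of all promoters in the table. In the p53 lists 41 of 51 genes had a promoter, and 15 of their 58 promoters (25.9%) held the p53 decamer, against 8.36% of all promoters in the table, so most members did not hold it. Among the called members it was 9 of 38 promoters (23.7%), and among the others 6 of 20 (30%), where only 78.9% of the genes had a promoter. A match is a string of letters in a window and not a site shown to be bound. Shares over all genes tested or all called genes are not given, since fewer than 80% of those genes had a promoter in the table.

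The genes that p53 is known to activate were mostly lower in the deficient library. Over 4 lists, 51 genes reached the minimum level, 31 were lower and 1 was higher, with a median log2 ratio of -1.27, against 10.2% lower and 9.79% higher over all genes. Trp63 and the glutaminase gene Gls2 were below the minimum level.

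Of 11 arrest genes 8 were lower, with a median of -1.59. Cdkn1a had 25804 and 3204 counts without treatment, and 34221 and 3926 with doxorubicin. The deficient libraries lay far below both wild-type libraries, and the untreated level was 6.96-fold lower (6.71 to 7.22). Ccng1, which encodes cyclin G1 and recruits a phosphatase to MDM2, had 24316 and 3040 counts, and 27673 and 3844 with doxorubicin, a 6.91-fold lower level without treatment (6.66 to 7.18). The groups did not overlap for it either. Sesn2, a sensor of leucine that restrains mTORC1, stood at -2.66, the kinase gene Plk2 at -2.62, and the antiproliferative gene Btg2 at -2.15. Zmat3, an RNA-binding tumour suppressor, stood at -1.59, Rprm, a G2 arrest protein, at -1.55 and the kinase gene Plk3 at -1.27. Not every arrest gene followed: Gadd45a, a stress protein of the G2 checkpoint, had 997 and 876 counts (0.02), Sesn1 stood at 0.56 (1.37 in the doxorubicin pair), and Sfn, which encodes 14-3-3 sigma, at -0.79.

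The p53 transcript itself differed little. Trp53 had 2026 and 1575 counts without treatment and 2712 and 1743 with doxorubicin, a 1.11-fold lower level in the untreated deficient library (1.04 to 1.19). Of the 8 measured genes of p53 and its feedback regulators 4 were lower and 0 higher, and 3 were lower in the doxorubicin pair as well. Mdm2, the ubiquitin ligase that degrades p53, had 7627 and 1454 counts, and 9150 and 1572 with doxorubicin, or 4.53-fold less without treatment (4.29 to 4.80). Trp53inp1, a cofactor of p53, stood at -3.53, and the ligase gene Rchy1 and the MDM2 partner Mdm4 at -1.22 and -1.16. Ppm1d, the phosphatase WIP1, stood at -0.80, Cop1 at 0.23 (-0.21 on TPM) and the relative Trp73 at 0.30. Protein levels of p53 were not measured here.

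All 13 targets that act in cell death had a ratio below 0, 9 of them at least 2-fold, with a median of -1.65. The BH3-only gene Pmaip1 had 4782 and 89 counts, and 6197 and 97 with doxorubicin, so that the deficient level was 46.4-fold lower (37.7 to 57.9). This was the widest difference of any p53 target listed. Pidd1, the scaffold of the PIDDosome, had 1604 and 104 counts, and 1326 and 226 with doxorubicin, 13.3-fold less without treatment (10.9 to 16.4). Apaf1, the core of the apoptosome, stood at -2.71, Ei24 at -1.92, the nuclease gene Aen at -1.65, the BH3-only gene Bbc3 (PUMA) at -1.48 and the death receptor gene Tnfrsf10b at -1.44. The 4 members within 2-fold were Bax at -0.67, Bid and Siva1 at -0.57 each, and the death receptor gene Fas at -0.13.

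Of 19 targets in metabolism, repair and signalling, 10 were lower and 1 higher, with a median of -1.04. Dcxr, a carbonyl reductase, stood at -2.72, Phlda3, an inhibitor of AKT, at -1.77, and the repair genes Ercc5 and Polk at -1.99 and -1.98. Polh, the DNA polymerase that copies past ultraviolet lesions, was the exception. It had 11 and 205 counts without treatment, and 152 and 308 with doxorubicin, so the wild-type libraries differed widely from each other. The ratio was 21.6 (11.8 to 43.9) in the untreated pair. As a log2 ratio Polh stood at 3.06 there and at 1.12 in the doxorubicin pair, higher in both. The nucleotide excision genes Ddb2 and Xpc stood at -0.76 and -0.65.

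**Figure D2:**
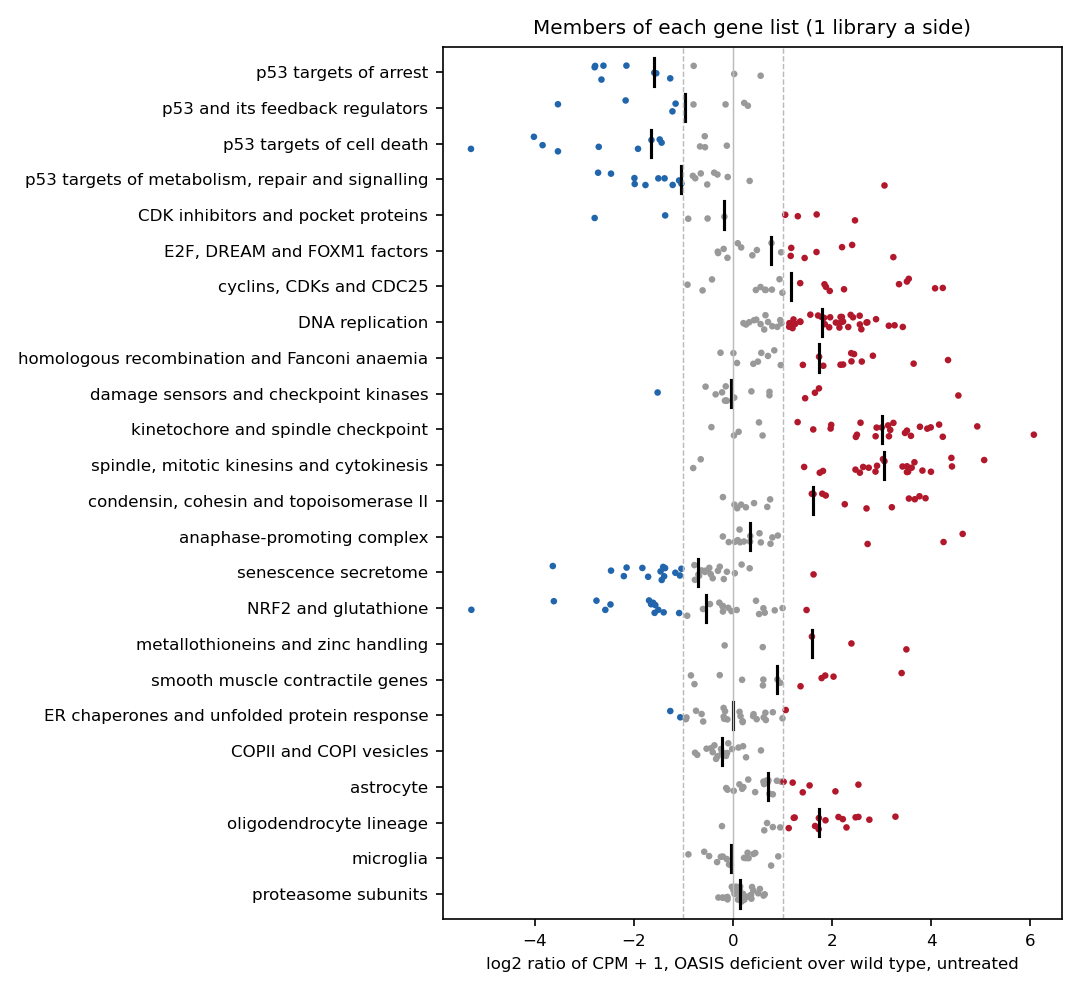
Log2 ratio of CPM + 1, deficient over wild type, untreated, for each measured member of 24 gene lists, with red points at least 2-fold higher, blue points at least 2-fold lower, grey points between, and a black bar at the list's median. The p53 lists have medians from -1.65 to -0.98, the kinetochore and spindle lists 3.0 and 3.04, and the proteasome subunits stay within 2-fold.

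CDK inhibitors did not move as a block. Of 9 measured, 2 were lower and 4 higher, beside 10.2% and 9.79% over all genes, with a median of -0.18. Below Cdkn1a came the pocket protein gene Rbl2 (p130), which holds the DREAM complex together, with 2256 and 744 counts (-1.37). The INK4 inhibitors Cdkn2d (p19) and Cdkn2c (p18) were higher. Cdkn2d had 258 and 1305 counts, and 300 and 1710 with doxorubicin, a ratio of 5.85 (5.12 to 6.72). Cdkn2c stood at 1.69, Rbl1 (p107) at 1.31 and Cdkn1b (p27) at 1.05. Cdkn2b stood at -0.18, and Cdkn2a, the senescence marker that encodes p16 and ARF, had 2 and 8 counts and was below the minimum level.

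Cell cycle genes that act in S phase and mitosis were mostly higher in the deficient library, and other steps were mixed. Over all lists from G1 regulators to repair, chromatin and lamina, 241 genes were measured. Of these 133 were higher and 3 lower, beside 9.79% and 10.2% over all genes. The median of the 241 was 1.36, with 205 above 0. The 3 lower members were Cdkn1a, Rbl2 and Atm, the kinase that senses double-strand breaks. Atm had 343 and 92 counts (-1.52, and -0.56 in the doxorubicin pair).

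Among transcription factors of the cycle, 7 of 17 were higher and 0 lower (median 0.78). Foxm1, the activator of G2 genes, had 126 and 650 counts, and 113 and 944 with doxorubicin, a ratio of 5.97 (4.93 to 7.28). Both deficient libraries lay above both wild-type libraries. Mybl2, its partner in the MMB complex, stood at 2.20, and the repressors E2f8 and E2f7 at 3.23 and 1.44. The activators E2f1 and E2f3 stood at 0.48 and -0.30, and E2f2, with 44 and 91 counts, at 0.97 (-0.54 in the doxorubicin pair).

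Of 20 cyclins, CDKs and their phosphatases 10 were higher and 0 lower (median 1.18). The D cyclins, of early G1, were not called: Ccnd1 had 9468 and 4320 counts (-0.92), Ccnd2 31676 and 17873 (-0.61), and Ccnd3 2085 and 3610, at the threshold with a ratio of 2.003 before the added 1 CPM. The E cyclins Ccne1 and Ccne2 stood at 1.87 and 1.85. Ccna2 had 110 and 1877 counts, and 251 and 3217 with doxorubicin, a ratio of 19.7 (16.3 to 24.2). Cdk1, the kinase that drives mitosis, had 262 and 2755 counts, and 385 and 4202 with doxorubicin, a ratio of 12.2 (10.7 to 13.9). Ccnb1 and Ccnb2, its cyclins, stood at 3.55 and 4.23. Cdk4, Cdk2 and Cdk6 stood at 0.46, 0.55 and 0.65, and were not called.

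DNA replication genes had 32 of 45 members higher, 0 lower and all 45 above 0, with a median of 1.79. The 6 subunits of the MCM helicase were all above 0. Mcm5 stood at 3.14, Mcm6 at 2.56, Mcm2 at 2.22, Mcm4 at 1.84, Mcm3 at 1.13 and Mcm7 at 0.71. Mcm6 had 315 and 1684 counts, and 393 and 2617 with doxorubicin, a ratio of 6.19 (5.48 to 7.0). Nucleotide supply differed within itself, since Rrm2, the subunit of ribonucleotide reductase made in S phase, had 829 and 3911 counts (2.42) while Rrm1 stood at 0.65. Pcna, the sliding clamp, had 1353 and 2592 counts (1.14). The lowest members were Rfc1 at 0.21 and Rpa1 at 0.26.

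Recombination and Fanconi anaemia genes were higher in 12 of 21, with a median of 1.74. Brca1 had 5 and 252 counts without treatment but 123 and 265 with doxorubicin, so its wild-type libraries differed widely. The MRN complex, which finds broken ends, did not reach 2-fold, with Mre11a at -0.25, Rad50 at 0.08 and Nbn at 0.70. Of 16 damage sensors and checkpoint kinases 4 were higher, led by Clspn (0 and 385 counts), an adaptor that CHK1 needs, and the median was -0.05.

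Mitotic genes had the highest medians of all cell cycle lists. Kinetochore and spindle checkpoint genes were higher in 24 of 29 (median 3.0), and spindle, kinesin and cytokinesis genes in 22 of 24 (median 3.04), with 0 lower in either list. Cenpf, a kinetochore protein, had 34 and 1401 counts, and 105 and 2854 with doxorubicin, a ratio of 47.7 (34.0 to 69.1). Plk1, the mitotic polo kinase, had 78 and 946 counts, and 26 and 1684 with doxorubicin, a ratio of 14.0 (11.1 to 17.9). Both deficient libraries were high and both wild-type libraries low for these genes. Kif11, the motor that separates the spindle poles, had 53 and 701 counts, and 52 and 1041 with doxorubicin, a ratio of 15.3 (11.6 to 20.6). Kifc1 at -0.80 and Ckap2 at -0.65 were the spindle members below 0, and Zw10, at -0.44, was the kinetochore member below 0. Bub3, which also acts outside mitosis, stood at 0.02.

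Genes of the chromosome machines differed among themselves. Of 19 condensin, cohesin and topoisomerase genes 11 were higher (median 1.62). Top2a, the topoisomerase of dividing cells and a target of doxorubicin, had 197 and 2365 counts, and 270 and 3774 with doxorubicin, a ratio of 13.9 (12 to 16.1). Its relative Top2b, expressed in resting cells too, stood at 0.08. The condensin genes Ncapg and Ncapd2 stood at 3.88 and 3.76, while the core cohesin genes Smc1a, Smc3 and Stag2 stood at 0.42, 0.26 and 0.16. In the list of the anaphase-promoting complex 3 of 17 were higher: its activator Cdc20 (2.72), its inhibitor Fbxo5 (4.25) and its enzyme Ube2c (4.63). The core subunits lay between -0.21 and 0.79.

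Chromatin and lamina genes followed for a few members only. Uhrf1, which guides DNA methylation to new strands, had 141 and 792 counts (2.54), Ezh2, the Polycomb methyltransferase, 226 and 608 (1.56), and the helicase gene Hells stood at 1.27, while the other 8 measured members of that list were not called. Dnmt1, the maintenance methyltransferase, came closest, with 724 and 1255 counts. Dnmt3b was below the minimum level. The list's median of 0.27 turned to -0.03 on TPM. Lmnb1, the lamin whose loss marks senescence, had 53 and 665 counts, and 138 and 1151 with doxorubicin, a ratio of 14.5 (11.0 to 19.6). The other 12 lamina genes were not called, with the A-type lamin gene Lmna at -0.78 and the list's median at 0.11 (-0.14 on TPM).

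The senescence secretome, the cytokines, proteases and growth factors that senescent cells release, was lower in part. Of 42 genes 33 reached the minimum level, with a median of -0.70. Of these 14 were lower and 1 higher, beside 10.2% and 9.79% over all genes. Cxcl1 had 343 and 8 counts, and 234 and 2 with doxorubicin, 37.1-fold less without treatment (18.6 to 86.5). Cxcl12, a chemokine, had 999 and 174 counts (-2.20), the gelatinase gene Mmp2 1476 and 377 (-1.71), and the adhesion gene Icam1 2229 and 734 (-1.37). Igfbp5, an IGF-binding protein, was higher, with 4438 and 11861 counts, and 5381 and 17983 with doxorubicin (1.62). The members Igfbp2, Spp1 and Igfbp7 stood at 0.34, -0.12 and -0.41, and Il6, at 1 and 14 counts, was below the minimum level. Among immediate early genes 4 of 14 were lower and 0 higher (median -0.47), led by Fosl1, an AP-1 subunit, with 940 and 95 counts (-2.89). Fos, Jun and Junb stood at -0.36, -0.30 and -0.41.

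Interferon and antigen presentation genes were called in part, beside 10.2% lower and 9.79% higher over all genes. Of 23 measured interferon response genes 7 were lower and 1 higher (median -0.62), with the deconjugating enzyme gene Usp18 at -1.55 and the factor Irf7 at -1.37. Of 15 class I presentation genes 4 were lower and 3 higher, and 2 and 0 in the doxorubicin pair. Tap1, the peptide transporter, had 2411 and 445 counts, and 2260 and 510 with doxorubicin, 4.68-fold less without treatment (4.23 to 5.19), and its regulator Nlrc5 stood at -1.61. H2-K1 and H2-D1, the classical class I chains, stood at -0.80 and -0.71. The immunoproteasome subunits went the other way in this pair: Psmb8, Psmb9 and Psmb10 stood at 1.01, 1.15 and 1.23, but at -0.10, -0.46 and -0.23 in the doxorubicin pair.

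NRF2 is the factor that switches on defence against oxidants. Of 30 measured genes in the list of NRF2 targets and glutathione enzymes, 13 were lower and 1 higher. Their median was -0.54, and 10.2% of all genes were lower and 9.79% higher. Nqo1, a quinone reductase and the usual reporter of NRF2, had 17182 and 2660 counts, and 18240 and 2203 with doxorubicin, 5.58-fold less without treatment (5.36 to 5.82). Srxn1, sulfiredoxin, had 17418 and 2508 counts, and 17792 and 2685 with doxorubicin, 6.0-fold less without treatment (5.76 to 6.26). Both genes kept the libraries of one genotype close together and the genotypes far apart. The cystine importer gene Slc7a11 had 4171 and 519 counts (-2.76), and the thioredoxin reductase gene Txnrd1 23730 and 6693 (-1.61). Gclc and Gclm, the subunits of the rate-limiting enzyme of glutathione synthesis, stood at -1.51 and -1.40, and the haem oxygenase gene Hmox1 at -1.09. Nfe2l2, which encodes NRF2, had 7717 and 5501 counts (-0.28), and its inhibitor Keap1 stood at 0.53. The alpha-class transferases Gsta1 to Gsta4 ran from -5.28 to -1.58 and the mu-class gene Gstm6 stood at 1.48. Because these families hold near-identical copies, reads can be shared among them and the values are uncertain.

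Of 5 genes of metallothioneins, which bind zinc and copper, and zinc handling 3 were higher and 0 lower. The shares over all genes were 9.79% and 10.2%. Mt2 had 1387 and 13715 counts, and 1801 and 13568 with doxorubicin, a ratio of 11.4 (10.8 to 12.1). Mt1 had 8670 and 39316 counts, and 11305 and 38644 with doxorubicin, a ratio of 5.25 (5.13 to 5.37). Mt3, the form of the brain, stood at 1.59. The zinc-sensing factor gene Mtf1 stood at -0.17 and the zinc exporter Slc30a1 at 0.60. Mt1 and Mt2 are close in sequence and may share reads.

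Some contractile genes of the actin cytoskeleton were higher. Of 13 measured smooth muscle genes 5 were higher and 0 lower (median 0.89). Acta2, smooth muscle actin, had 23785 and 74668 counts, and 35484 and 99837 with doxorubicin, a ratio of 3.63 (3.58 to 3.69). Cnn1, calponin, had 1063 and 9874 counts, and 1426 and 9311 with doxorubicin, a ratio of 10.7 (10.1 to 11.5). Both deficient libraries lay above both wild-type libraries for both genes. Myl9 stood at 2.03, Tagln at 1.79 and Tpm2 at 1.36. Myh11 and Des, markers of mature muscle cells, had 46 and 16 and 41 and 12 counts, and Myocd, the muscle coactivator, had 24 and 0 and was below the minimum level. Collagens, laminins and other matrix genes held 5 higher and 4 lower of 40, with a median of -0.19. These shares are near those of all genes, 9.79% higher and 10.2% lower. Col18a1 and Lamb1 were lower in both pairs, at -1.84 and -1.31 here. Postn had 2 and 223 counts without treatment but 219 and 152 with doxorubicin.

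Of 24 cholesterol synthesis genes 7 were higher in the untreated pair and 0 lower, beside 9.79% and 10.2% over all genes. The list's median was 0.57. The early enzyme gene Pmvk stood at 1.61 and Fdft1, squalene synthase, at 1.33, while Sqle, squalene epoxidase, stood at -0.05. In the doxorubicin pair 1 of the 24 reached 2-fold, Stard4 at 1.72, and the median was 0.41.

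Among targets of ATF4, the factor of the amino acid response, 3 of 16 were lower and 2 higher (median 0.41). Over all genes 10.2% were lower and 9.79% higher, so so few calls say little about this list or the next. The lower ones included the hormone gene Stc2 at -1.64 beside Slc7a11 and Sesn2, which stand in lists above as well. The higher ones were the proline enzyme gene Pycr1 at 2.21 and the folate enzyme gene Mthfd2 at 1.29, while the serine synthesis genes Phgdh, Psph and Psat1 stood at 0.65, 0.54 and 0.29. Targets of YAP, the growth factor of the Hippo pathway, held 2 lower and 0 higher of 10 (median -0.45), with the matrix genes Ccn1 and Ccn2 at 0.65 and 0.84.

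Receptors and ligands of neural development differed in both directions. In the Notch list 3 of 12 were lower and 1 higher, beside 10.2% lower and 9.79% higher over all genes. Jag2, a ligand, had 266 and 3 counts, and 376 and 48 with doxorubicin, and Jag1 had 468 and 76, but 163 and 204 with doxorubicin, so only Jag2 and the receptor gene Notch3 (-1.46) were lower in both pairs. The target gene Hes5 was higher, at 1.60 and 1.65. Of 26 measured axon guidance genes 8 were lower and 5 higher, with the receptor genes Robo1 at -2.72 and Unc5b at -2.12 and the Eph receptor gene Epha5 at 1.89. Of 14 measured BMP and ID genes 4 were lower and 1 higher, with a median of 0.06, 7 above 0 and 7 below. Fst, follistatin, an inhibitor of activins, had 1789 and 251 counts, and 2108 and 299 with doxorubicin. Its level was 6.16-fold less without treatment (5.39 to 7.06). Id3, a target of BMP signals and the 1 gene of that list called higher, had 15508 and 30858 counts (1.20).

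Markers of cell types were checked against the label and gave levels that differed between the libraries. All 23 astrocyte markers reached the minimum level, 6 were higher, 0 lower and 21 above 0, and their summed level was 18063 CPM in wild type and 27123 in deficient. Apoe, Clu and the gap junction gene Gja1 stood at 0.13, 0.01 and -0.14. Gfap had 22712 and 113415 counts, and 25639 and 102215 with doxorubicin, a ratio of 5.78 (5.70 to 5.86). Kcnj10, the potassium channel Kir4.1, had 900 and 3311 counts (2.07), and Aqp4, the water channel of astrocyte endfeet, 8780 and 20142 (1.41). In bulk RNA, more or fewer cells of a type and more or less RNA per cell cannot be told apart. The reactive astrocyte list had 7 of 34 higher and 3 lower, beside 9.79% and 10.2% over all genes. Its median was -0.08, with 16 members above 0 and 18 below. The widest ratio was that of Tgm1, a transglutaminase, with 34 and 948 counts, and 37 and 725 with doxorubicin. It was 32.3 (22.9 to 46.9) without treatment. Lcn2 had 55339 and 22253 counts (-1.10) and C3 18218 and 8594 (-0.87).

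Oligodendrocyte lineage markers were higher in 14 of 19, with 0 lower, beside 9.79% and 10.2% over all genes. The summed level of these markers was 490 CPM in wild type and 1137 in deficient. Sox10, a factor that defines the lineage, had 25 and 244 counts, and 0 and 278 with doxorubicin, a ratio of 11.3 (7.47 to 17.8). Mbp, a myelin protein, had 429 and 1879 counts, and 318 and 2119 with doxorubicin. Mog, of mature myelin, had 0 and 58 counts, and Opalin was below the minimum level. Neuron and neuroblast markers were higher in 6 of 11, with Stmn2 at 1743 and 3109 counts, and the defining markers Slc17a6 and Slc17a7 had 0 and 0 and 28 and 6. Their summed level was 275 and 462 CPM, and 7 of their 18 genes were below the minimum level. Microglia markers held 0 calls of 17 in either direction, with summed levels of 1824 and 1623 CPM. The markers of fibroblasts, at 398 and 352 CPM, and of endothelium and pericytes, at 80.6 and 54.3 CPM, held 2 and 0 higher and 2 and 1 lower. Neural progenitor markers, at 4869 and 7788 CPM, held 3 higher and 1 lower of 10. Ependymal markers, at 130 and 138 CPM, held 2 higher and 2 lower of 10. The part of these markers in the other differences was not tested. The cell cycle and p53 genes above are expressed by many cell types.

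Genes often used as constants were set beside these lists. None of the 31 proteasome subunits was called (median 0.14, and -0.07 on TPM), nor were the 13 protein-coding genes of mitochondrial DNA (median 0.43). Of 15 reference genes 2 were lower: Hprt had 3638 and 1002 counts, and 4560 and 1035 with doxorubicin, 3.14-fold less without treatment (2.93 to 3.37), and the transferrin receptor gene Tfrc stood at -1.28. Gapdh, Actb and Tbp stood at 0.50, 0.81 and -0.42.

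In absolute terms the widest gains and losses fell on abundant genes. Among the 15 widest gains in CPM were Gfap, the creatine kinase gene Ckb (3111 to 6388 CPM), the tubulin gene Tuba1a (2225 to 5338) and the fatty acid-binding gene Fabp7 (516 to 1341). Among the 15 widest losses were Lcn2, the protease inhibitor gene Serpine2 (1605 to 495), the epoxide hydrolase gene Ephx1 (1437 to 374) and Hist1h1c, a linker histone (1201 to 466).

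The share of genes past 2-fold depended on their level. It was 34.4% at a mean of 1 to 5 CPM, 25.0% at 5 to 20, 12.2% at 20 to 100 and 8.91% at 100 CPM and over. Between the libraries of one genotype, which differ in treatment label and sex pattern, the shares at 100 CPM and over were 0.0969% in wild type and 0.0969% in deficient, and at 1 to 5 CPM 24.7% and 10.2%. Over all levels 9.53% of genes differed by 2-fold between the wild-type libraries and 3.51% between the deficient ones.

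**Figure D3:**
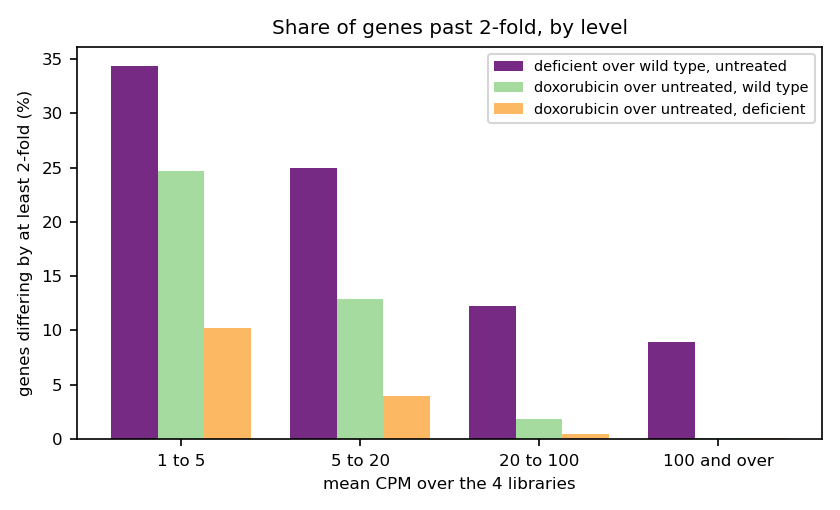
Percent of genes differing by at least 2-fold in 3 comparisons of single libraries, in 4 ranges of mean CPM over the 4 libraries. Bars start at 0, and the genotype comparison stands at 34.4% at the lowest levels and 8.91% at the highest, where both comparisons within a genotype are at 0.0969%.

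Most of the wide differences recurred in the doxorubicin pair, where 10.7% of genes were higher and 9.55% lower. Of the 1527 higher genes, 899 (58.9%, or 53.8% of the 1670 higher there) were higher in both and 27 were lower there. Of the 1588 lower genes, 806 (50.8%, or 54.1% of the 1490 lower there) were lower in both and 43 were higher there. Among genes at least 4-fold higher (2.45% of all) or lower (1.98%) without treatment the shares were 318 of 382 (83.2%) and 249 of 309 (80.6%). None of the 70 genes called in opposite directions had a mean of 20 CPM or more over the 4 libraries.

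**Figure D4:**
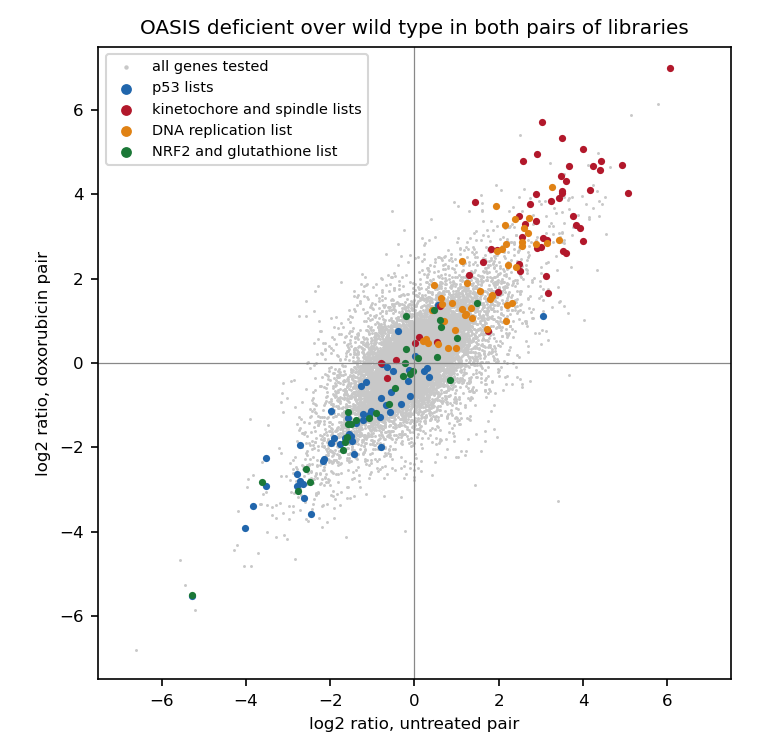
Log2 ratio of deficient over wild type in the untreated pair (horizontal axis) and in the doxorubicin pair (vertical axis), 1 point per gene, with all tested genes in grey and 4 groups of lists in colour. The kinetochore, spindle and replication genes lie to the upper right, and most p53 and NRF2 genes to the lower left, with Polh as the p53 target to the right.

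Genes listed at 0 in one untreated library and at 100 or more counts in the other numbered 19 in wild type and 21 in deficient. Of the 19, 18 were higher in the doxorubicin pair, and of the 21, 18 were lower there. Besides mitotic genes such as Ttk (0 and 190 counts) and Depdc1a (0 and 227), the 19 held Lgi3 (0 and 188), a secreted neuronal protein, and the hypoxia-linked carbonic anhydrase gene Car9 (0 and 137). The 21 held Krtap1-5 (273 and 0, and 623 and 0 with doxorubicin), a keratin-associated protein, and Il1rl1 (126 and 0, and 214 and 14), the receptor of interleukin 33. An exact 0 in an estimated count can be a failed estimate.

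Within 5 Mb of Creb3l1, 4 of 55 tested genes were higher (7.27%, against 9.79% of all genes) and 5 lower (9.09%, against 10.2%). Trp53i11, a p53-induced gene 1.19 Mb away, had 717 and 84 counts, and 967 and 137 with doxorubicin, 7.38-fold less without treatment (5.88 to 9.36). Prdm11 and Agbl2 stood at -1.80 and -1.62, and Lrrc4c, with 28 and 231 counts, at 2.58. Of the 9, 6 were called the same way in both pairs.

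**Figure D5:**
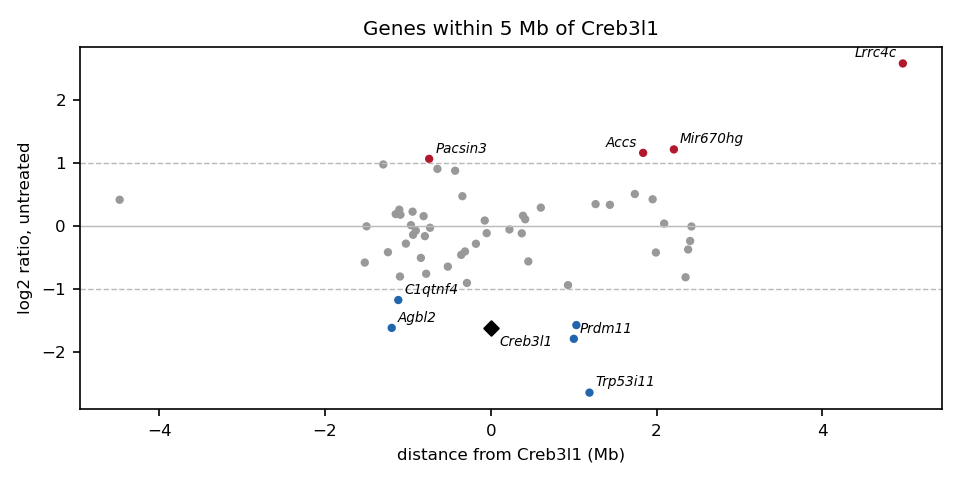
Log2 ratio, deficient over wild type, untreated, of the 55 tested genes within 5 Mb of Creb3l1 by distance from it, with Creb3l1 as a black diamond and dashed lines at 2-fold. The 4 higher (red) and 5 lower (blue) genes lie on both sides, with Trp53i11 at -2.65 the lowest.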

How the data were processed

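RNA from 4 cultures was sequenced from SMART-Seq v4 libraries, a kit that does not mark strand, so reads of overlapping or antisense genes cannot be told apart. For each library the authors deposited a table whose columns, per the file headers, hold an estimated count and TPM of every gene. Per the submitters' processing notes, DRAGEN and GRCm38 were used. The DRAGEN version, the annotation behind the counts and any filter on reads were not given in the sources used here. Those counts were rounded to whole numbers (5810 to 6451 genes per library held fractions) and scaled to CPM with TMM factors of edgeR from the 4 libraries, and 1 CPM was added before log2, which understates the change of low genes. The deposited TPM, scaled by length and library, served only as an alternative. Symbols came from GENCODE M21 on GRCm38, which matched 55141 of 55487 identifiers and left 346 unmatched.

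Groups followed the labels. The numbers in the titles follow treatment and mark no replicate. There are 47 gene lists (852 genes), and they and the genes compared were chosen with earlier results of these data known. Genes were named by rule: Creb3l1, Cdkn1a and Gfap, the 20 highest and 20 lowest ratios with a mean of at least 5 CPM in the untreated libraries, the 15 widest CPM gains and losses, genes at 0 against at least 100 counts, the 8 widest ratios and the first 3 genes of every list, and called neighbours of Creb3l1. Further list members, chosen after their values were seen, are named to account for their list. Unnamed transcripts and pseudogenes, 571 of the calls, were counted and not named in the comparison. Some genes are not reported here. Without molecular identifiers, reads do not stand for independent molecules. Alternatives were DESeq2 size factors, total counts, TMM on the untreated libraries, pseudocounts of 0.5 and 5 CPM, other minimum levels, and TPM. The ratio and interval code was tested on simulated data. Software was R 4.3.3, edgeR 4.0.16, DESeq2 1.42.0, Python 3.11.15 and SciPy 1.17.1.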

Additional observations from a re-analysis of the deposited data

Results flagged for a closer look

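Genes named here were at least 2-fold apart in opposite directions in the untreated and the doxorubicin pair, and in none was the difference between the pairs tested. Dnah11, a dynein of motile cilia, stood at -1.10 without treatment and at 1.08 with doxorubicin, from 35 and 5 against 11 and 42 counts in wild type and deficient. Mrc1, the mannose receptor of macrophages, stood at -2.74 and 1.11, from 113 and 0 against 0 and 23 counts. Zbp1, a sensor of Z-form nucleic acids, stood at 1.68 and -1.86, from 0 and 38 against 77 and 4 counts. All 3 had fewer than 120 counts in every library.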

How the results depend on the processing

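The numbers of higher and lower genes stayed within 1.5 times under DESeq2 size factors, total counts, TMM on the untreated libraries, a pseudocount of 0.5 CPM, no minimum, a minimum over the untreated libraries and TPM. With a pseudocount of 5 CPM 763 genes were higher and 643 lower, and 490 and 350 in both pairs. With a minimum mean of 5 CPM 1015 were higher and 880 lower, and 491 were lower in both pairs, with fewer genes tested (12048). On TPM the median of all genes shifted from -0.03 to -0.20, and 1221 genes were higher and 2095 lower (36.8% of calls higher, against 49.0%). Of 298 called genes named, 0 turned direction under the other scalings and pseudocounts or on TPM, and 239 to 298 stayed past 2-fold. Other minimum levels do not alter the ratio of a gene. Of 21 lists with a median of at least 0.5 either way, 0 turned sign under any of the 9 alternatives. Medians near 0 did turn: on TPM those of Polycomb (-0.03), lamina (-0.14), endoplasmic reticulum stress (-0.35), reference genes (-0.02) and proteasome (-0.07), on total counts that of endoplasmic reticulum stress (-0.04), and with no minimum that of the CDK inhibitors (0.12). No paired analysis was possible because each group holds 1 library and the number in the titles follows treatment, and for the same reason no replicate could be left out. The share past 2-fold was largest at 1 to 5 CPM, at 34.4%. There 24.7% passed it between the wild-type libraries and 10.2% between the deficient ones, and the part of depth in this was not tested.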

Other observations

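Genes known for their expression in the cleavage-stage embryo, which most cultured cells keep silent, had more reads in the wild-type than in the deficient libraries. They were chosen after their values were seen. The 6 Zscan4 genes and their 3 pseudogenes together had 568 and 24 counts without treatment (wild type, then deficient), and 1125 and 0 with doxorubicin, a level 20.5-fold lower in the untreated deficient library (13.6 to 32.2). The 6 genes alone had 348 and 4 counts and the pseudogenes 220 and 20. The 5 Usp17l genes, which encode deubiquitinases, had 181 and 0 counts, and 589 and 0 with doxorubicin, at least 52.1-fold lower without treatment (3 counts over the group taken for a 0). The Tcstv genes had 63 and 0 counts, and 98 and 0 with doxorubicin. The Tdpoz genes had 54 and 0, and 19 and 0, and Zfp352, a zinc finger gene, had 20 and 0, and 47 and 0. Duxf3, which encodes the factor DUX, known to switch on such genes, had 20 counts in wild type with doxorubicin and 0 in the other 3 libraries. Members of these families are near-identical copies that share reads, so only the sums are given. The counts are low beside the totals, and no label says anything of such cells.

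Over the whole table, 76 tested genes were at 0 in both deficient libraries and above 3 counts in both wild-type libraries, and 36 showed the reverse. Of the 76, 13 lay in 1 window of chromosome 5, from 93390602 to 98188991 on GRCm38, with 17 to 96 counts in wild type without treatment and 32 to 189 with doxorubicin. Of these 13, 12 are unnamed transcripts or pseudogenes. Among the 12, 1 lies within the named gene, Prdm8, and in libraries that do not mark strand their reads cannot be told apart. Whether the others share reads was not tested. Being at 0 in both deficient libraries, all 76, with these 13, reached the minimum level through the wild-type libraries alone. The 36 reached it through the deficient libraries alone. Among 241 windows of 10 Mb with at least 20 tested genes, the median share of lower genes was 9.84%. In the window of chromosome 5 from 90 to 100 Mb it was 35.9%. Most of the 13 count among its lower genes, so the minimum level helped to set this share. The share was higher in 1 window, chromosome 13 from 20 to 30 Mb, with 27 of 72 genes lower (37.5%).

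That window holds the main cluster of histone genes. Of 46 measured histone cluster genes over all chromosomes, 26 were lower and 9 higher in the deficient library. So were 24 and 5 in both pairs. The median was -1.21 (-1.46 on TPM), and over all genes 10.2% were lower and 9.79% higher. Hist1h2ac had 2419 and 214 counts, and 3231 and 263 with doxorubicin, and Hist1h4h had 2789 and 410, and 3638 and 447. Hist1h2ap went the other way, with 767 and 5109 counts, and 1185 and 8309. The DNA replication genes of the same library were higher (median 1.79), and a link between these groups of genes was not tested. How fully the library kit captures histone transcripts was not tested either, so these counts may not stand for their total level. Histone genes of these clusters include near-identical copies that share reads, so single values are uncertain.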
